A study of Homo sapiens with 8 samples.

Results

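The 10 genes described here encode ligands that tumour cells display to immune cells, and they were chosen by their symbols: CD274, PDCD1LG2, CD276, VTCN1, CD47, PVR, LGALS9, ULBP1, ULBP2 and ULBP3. They are 10 of 25369 named genes in the deposited count table, and all 10 were among the 17714 genes tested. Poly(A) RNA was sequenced from UWB1.289, an established human ovarian carcinoma line that lacks functional BRCA1 (BRCA1-null), and from its derivative transduced with BRCA1 (BRCA1+). Each line was cultured for 24 h in the DMSO vehicle (control) or in 0.5 uM entinostat, an inhibitor of class I histone deacetylases, which gave 4 groups of 2 libraries: BRCA1+ control, BRCA1+ entinostat, BRCA1-null control and BRCA1-null entinostat. All 4 groups share the UWB1.289 background, both lines are single derivations, and the BRCA1+ line expresses BRCA1 from an introduced copy. Line differences therefore compare 1 derived line with its parent.

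Immune checkpoint ligands pass inhibitory signals to lymphocytes or phagocytes. PD-L1, the product of CD274, and PD-L2, the product of PDCD1LG2, bind PD-1 on T cells, B7-H3 (CD276) and B7-H4 (VTCN1) restrain T cells through receptors that are less well defined, CD47 binds SIRP-alpha on macrophages, PVR binds both the inhibitory receptor TIGIT and the activating receptor DNAM-1, and galectin-9 (LGALS9) is a ligand of TIM-3. The ULBP proteins act the other way: they are stress-induced relatives of MHC class I molecules that engage NKG2D, an activating receptor of natural killer cells and cytotoxic T cells. PD-L1 transcription is classically induced by interferon through IRF1, and NF-kB also acts on its gene, whereas NKG2D ligands are known for induction by DNA damage and cell stress.

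CPM denotes counts scaled to 1e6 per library with normalised library sizes, and RPKM denotes CPM per kilobase of gene model, the only scale on which levels of different genes are compared. Adjusted p-values are from the quasi-likelihood test of edgeR, by the Benjamini-Hochberg method over all genes tested, a gene was called when that value was under 0.05, and log2 fold changes are given with their standard error. Total counts per library were 31900158 to 53549893, so that the floor of 3 counts, up to which 0 observed counts are compatible, equalled 0.0552 to 0.0946 CPM. BRCA1 itself averaged 95.6 CPM (control) and 126 CPM (entinostat) in the BRCA1+ line and 21.7 CPM (control) and 18.4 CPM (entinostat) in the BRCA1-null line, and it was lower in BRCA1-null than BRCA1+ controls (log2 fold change -2.14 ± 0.0861, adjusted p = 5.46e-07). Of 8 markers of serous carcinoma epithelium, all were tested and together reached 13513 to 17724 CPM, although the serous lineage factor WT1 was near 0 (0.0184 to 0.500 CPM). Nothing in the labels states that same-group libraries came from separate cultures, so p-values measure only the spread between these libraries.

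The bases upstream of the RefSeq start site (GRCh38.p14) are shown for the 4 members called between the lines in DMSO, of which CD274 and CD276 were also called with entinostat. Each run is the 250 bases before the start, read 5′ to 3′ on the gene's strand, at chr9:5450292-5450541 for CD274, chr15:73684133-73684382 for the first of the CD276 windows, chr6:149963693-149963942 for ULBP1 and chr6:149941764-149942013 for ULBP2, all on the plus strand. Capitals mark matches, on either strand, to motifs searched by their letters: the interferon response core (GAAA and GAAA, 2 bases apart), the STAT site (TTC and GAA, 2 to 4 bases apart), and the Sp1 box GGGCGG.
CD274: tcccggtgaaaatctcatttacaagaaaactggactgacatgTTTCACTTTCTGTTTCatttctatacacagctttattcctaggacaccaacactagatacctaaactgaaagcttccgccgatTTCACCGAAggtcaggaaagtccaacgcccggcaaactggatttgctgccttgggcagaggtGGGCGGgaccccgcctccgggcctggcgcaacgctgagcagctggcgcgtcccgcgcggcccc
CD276: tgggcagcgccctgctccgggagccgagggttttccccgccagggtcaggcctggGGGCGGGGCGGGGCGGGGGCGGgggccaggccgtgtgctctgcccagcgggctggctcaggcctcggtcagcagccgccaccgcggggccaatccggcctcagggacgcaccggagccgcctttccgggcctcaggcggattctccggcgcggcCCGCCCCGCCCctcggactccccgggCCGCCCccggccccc
ULBP1: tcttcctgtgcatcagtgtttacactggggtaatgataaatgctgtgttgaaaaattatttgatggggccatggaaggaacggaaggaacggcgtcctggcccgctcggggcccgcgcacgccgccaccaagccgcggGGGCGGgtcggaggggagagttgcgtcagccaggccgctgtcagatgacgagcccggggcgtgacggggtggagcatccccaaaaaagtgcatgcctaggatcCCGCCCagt
ULBP2: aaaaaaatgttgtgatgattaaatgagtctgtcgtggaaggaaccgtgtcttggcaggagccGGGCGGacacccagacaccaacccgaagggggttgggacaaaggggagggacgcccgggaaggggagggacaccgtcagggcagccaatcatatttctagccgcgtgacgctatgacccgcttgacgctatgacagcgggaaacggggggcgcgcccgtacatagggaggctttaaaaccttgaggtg

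In CD274, 2 overlapping matches to the interferon response core (TTTCACTTTC and TTTCTGTTTC on the opposite strand) began 208 and 202 bases before the start, and 1 STAT-type match, TTCACCGAA, began 125 bases before it. Of the 9 members with a window, only CD274 held the STAT-type letters, which 19.9% of all 35116 windows of 250 bases before to 50 after a start hold, and only CD274 and LGALS9 held the interferon response core, found in 3.57% of windows. The Sp1 box occurred in 6 members (CD274, CD276, CD47, ULBP1, ULBP2 and ULBP3), against 45% of windows, and the CD276 run held 7 matches, some of which overlap. The letters searched for NF-kB (GGG and TTTCC, 2 bases apart, 1.91% of windows), the cyclic AMP response element (TGACGTCA, 1.85%), the ATF4 element (TGATGNAAT, 0.991%) and the E-box (CACGTG, 7.26%) were in none of the 9, and TATAAA (11.5%) was in ULBP1 alone, past its start. These are matches of letters in 1 window each, or 2 for CD276, and say nothing about which factor binds there.

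Per length, the 10 genes spanned a wide range of levels. CD47 stood highest, with a mean of 35.3 RPKM over the 8 libraries, followed by PVR (21.2 RPKM) and CD276, whose libraries ran from 16.1 to 24.8 RPKM. The NKG2D ligands ULBP1 (3.18 RPKM), ULBP2 (2.78 RPKM) and ULBP3 (1.70 RPKM) came next, then CD274 (1.41 RPKM). PDCD1LG2 (0.282 RPKM), VTCN1 (0.199 RPKM) and LGALS9 (0.107 RPKM) were scarce, and LGALS9 lay at the 4.85th percentile of the genes tested while CD47 lay at the 86.2nd. The 8 CD47 libraries (24.4 to 42.3 RPKM) lay above all 8 PVR libraries (19.0 to 23.3 RPKM), while the range of CD276 overlapped both. The ranges of ULBP1, ULBP2, ULBP3 and CD274 also overlapped, each with its neighbours in that order.

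**Figure D1:**
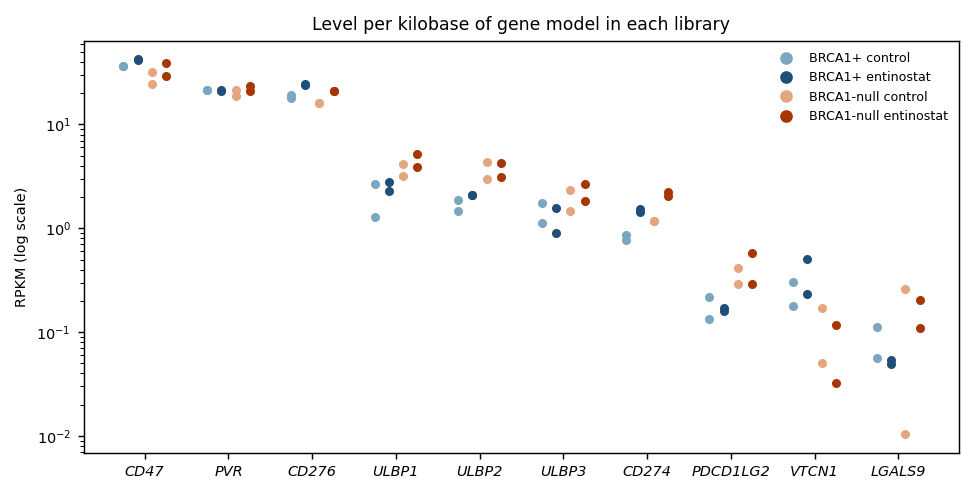
Level of each of the 10 genes in RPKM on a log scale (y axis), genes ordered by their mean along the x axis, with 1 point per library coloured by group. CD47, PVR and CD276 lie between 16.1 and 42.3 RPKM, the ULBP genes and CD274 between 0.773 and 5.15, and PDCD1LG2, VTCN1 and LGALS9 at 0.574 or below.

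CD274 rose with entinostat in both lines and was higher in BRCA1-null than in BRCA1+ cells under both treatments. The gene lies at chr9:5450503-5470567 on the plus strand (hg19, as in the count table). Its CPM was 2.85 and 3.20 in BRCA1+ cells under DMSO and 5.33 and 5.67 under entinostat, and 4.28 and 4.32 in BRCA1-null cells under DMSO and 7.59 and 8.31 under entinostat, from 114 to 356 counts. No 2 groups overlapped, and the lowest entinostat library of either line lay above the highest control library of both lines. Entinostat raised CD274 1.82-fold in BRCA1+ cells (log2 fold change 0.86 ± 0.151, adjusted p = 0.00743) and 1.84-fold in BRCA1-null cells (0.88 ± 0.126, adjusted p = 0.00466). The responses of the lines differed by 0.020 on the log2 scale, with a 95% interval from -0.43 to 0.47 (adjusted p = 0.997 for the interaction). BRCA1-null cells held 1.42-fold more CD274 than BRCA1+ cells in DMSO (0.50 ± 0.151, adjusted p = 0.0247) and 1.44-fold more in entinostat (0.52 ± 0.126, adjusted p = 0.00956). The line call in DMSO ended when any of the 4 control libraries was left out (adjusted p = 0.0544 to 0.124), with the DESeq2 Wald test (0.0594) and in a fit of only the groups compared (0.058). In entinostat the line call ended without BRCA1+ entinostat replicate 1 (adjusted p = 0.0618) or 2 (0.0524) or BRCA1-null entinostat replicate 2 (0.0555), and the entinostat call in BRCA1+ cells ended without BRCA1+ entinostat replicate 2 (adjusted p = 0.0759).

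PDCD1LG2, the neighbour of CD274 at chr9:5510545-5571282 on the same strand, was not called with entinostat in either line. CPM was 0.325 and 0.523 in BRCA1+ cells under DMSO and 0.410 and 0.388 under entinostat, and 0.703 and 1.01 in BRCA1-null cells under DMSO and 0.704 and 1.39 under entinostat, which rest on 13 to 58 counts. All 4 BRCA1-null libraries exceeded all 4 BRCA1+ libraries. In entinostat PDCD1LG2 was 2.58-fold higher in BRCA1-null cells (1.37 ± 0.458, adjusted p = 0.0403), while in DMSO the log2 difference was 1.01 with an interval from 0.01 to 2.01 (adjusted p = 0.096). The DMSO difference was called in a fit with the replicate number as a block (adjusted p = 0.0312). With entinostat the log2 change was -0.12 in BRCA1+ and 0.24 in BRCA1-null cells, with intervals from -1.39 to 1.15 and from -0.57 to 1.04, which include the values of CD274, so that a change of that size was not detectable at this depth. The call in entinostat ended without BRCA1+ control replicate 1 (adjusted p = 0.0514), BRCA1+ entinostat replicate 1 (0.117) or 2 (0.192), or BRCA1-null entinostat replicate 2 (0.23), and with the DESeq2 Wald test (0.0708), and with a library left out the log2 difference ran from 0.82 to 1.80.

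CD276, at chr15:73976622-74006859 on the plus strand, moved with entinostat like CD274 but with BRCA1 status the other way. The B7-H3 gene gave 60.8 and 65.1 CPM in BRCA1+ cells under DMSO and 81.9 and 84.3 CPM under entinostat, and 54.8 and 55.1 CPM in BRCA1-null cells under DMSO and 70.8 and 71.0 CPM under entinostat. Replicates lay close together and no groups overlapped. Entinostat raised CD276 1.32-fold in BRCA1+ cells (0.40 ± 0.0607, adjusted p = 0.00446) and 1.29-fold in BRCA1-null cells (0.37 ± 0.0607, adjusted p = 0.00832), and the interaction was -0.03 with an interval from -0.23 to 0.16. BRCA1-null cells had 1.15-fold less CD276 in DMSO (-0.20 ± 0.0610, adjusted p = 0.0281) and 1.17-fold less in entinostat (-0.23 ± 0.0603, adjusted p = 0.0141). Left out in turn, BRCA1+ control replicate 2 (adjusted p = 0.164) and BRCA1-null control replicates 1 (0.137) and 2 (0.0972) each ended the call in DMSO, as did BRCA1+ entinostat replicate 2 (0.0909) and BRCA1-null entinostat replicates 1 (0.0605) and 2 (0.0568) in entinostat. The DMSO call also ended with upper-quartile factors (0.0686), the stricter filter (0.0502), DESeq2 (0.053) and a fit of only the groups compared (0.0743), and the entinostat response of BRCA1-null cells lost its call without BRCA1-null control replicate 2 (0.0527).

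VTCN1, at chr1:117686209-117753582 on the minus strand, was the B7 gene lower in BRCA1-null cells by the widest margin, from few reads. Its counts were 21 and 41 in BRCA1+ cells under DMSO and 22 and 69 under entinostat, and 23 and 8 in BRCA1-null cells under DMSO and 16 and 4 under entinostat, or 0.0958 to 1.49 CPM. Replicates of BRCA1-null cells differed 3.43-fold in DMSO and 3.56-fold in entinostat. In entinostat VTCN1 was 5.09-fold lower in BRCA1-null cells (-2.35 ± 0.648, adjusted p = 0.018), and in DMSO the difference of -1.21 had an interval from -2.65 to 0.24 (adjusted p = 0.161). The call ended without BRCA1+ entinostat replicate 2 (adjusted p = 0.209, log2 fold change -1.61) or BRCA1-null entinostat replicate 2 (adjusted p = 0.0927, -1.76), and the difference was -3.56 without BRCA1-null entinostat replicate 1. In DMSO it was -2.25 without BRCA1-null control replicate 1 and -0.51 without replicate 2.

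**Figure D2:**
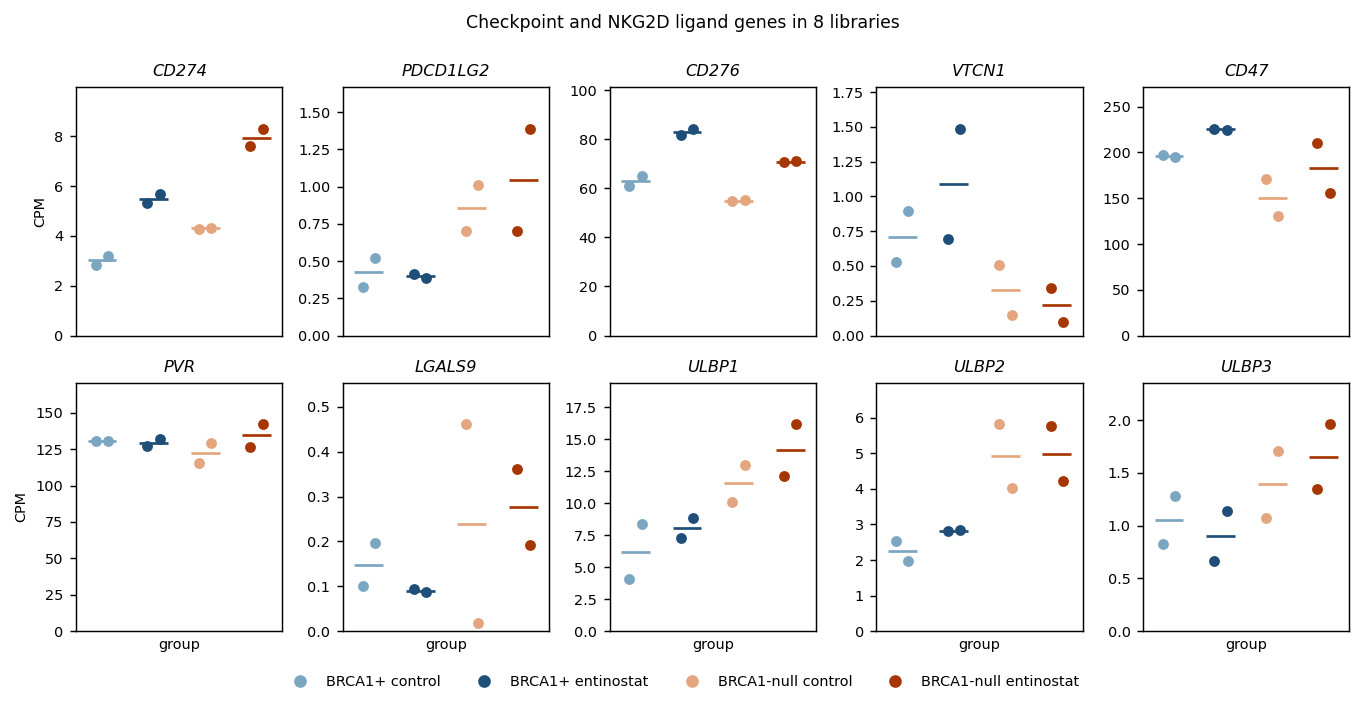
CPM (y axis, from 0) of each of the 10 genes in the 8 libraries, with 1 panel per gene, points for the 2 libraries of each group and a bar at their mean. CD274 and CD276 sit higher with entinostat in both lines (CD274 means 3.03 to 5.50 and 4.30 to 7.95), ULBP1 and ULBP2 sit higher in BRCA1-null cells, and the LGALS9 libraries of BRCA1-null control cells lie far apart.

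CD47, the "do not eat me" signal to macrophages, at chr3:107761941-107809935 on the minus strand, was abundant in every library. It gave 197 and 195 CPM in BRCA1+ cells under DMSO and 226 and 225 CPM under entinostat, and 171 and 130 CPM in BRCA1-null cells under DMSO and 210 and 155 CPM under entinostat. BRCA1+ replicates were nearly equal, whereas BRCA1-null replicates differed 1.31-fold in DMSO and 1.36-fold in entinostat. Within each treatment, both BRCA1-null libraries lay below both BRCA1+ libraries, yet the line differences were -0.38 ± 0.146 under DMSO (adjusted p = 0.0604) and -0.30 ± 0.145 under entinostat (adjusted p = 0.133) and did not pass the test. CD47 was called lower in BRCA1-null cells in DMSO by the DESeq2 Wald test (adjusted p = 0.00903), by edgeR's likelihood ratio test (0.032) and in a fit of only the groups compared (0.0331), and by the quasi-likelihood test without BRCA1-null control replicate 1 (0.0177) or BRCA1-null entinostat replicate 1 (0.0214) or 2 (0.0213). In entinostat DESeq2 also called it, and so did the quasi-likelihood test without BRCA1-null entinostat replicate 1 (0.0172). A fit with the replicate number as a block called CD47 lower in BRCA1-null cells under both treatments. Entinostat moved CD47 by 0.20 in BRCA1+ cells (interval -0.13 to 0.53) and by 0.28 in BRCA1-null cells (interval -0.05 to 0.61). Neither change was called, although that in BRCA1+ cells was called in a fit of only the groups compared (adjusted p = 0.0404).

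PVR, at chr19:45147098-45169428 on the plus strand, was the steadiest member. It had 131 and 131 CPM in BRCA1+ cells under DMSO and 127 and 132 CPM under entinostat, and 116 and 130 CPM in BRCA1-null cells under DMSO and 127 and 142 CPM under entinostat. The largest of its 4 pairwise differences was 0.13 on the log2 scale (BRCA1-null cells with entinostat, interval -0.04 to 0.30), and no interval reached beyond -0.26 or 0.30. MIR4531 lies within the gene, and 18.3% of the 50-base words of PVR transcripts also occur in an overlapping unnamed transcript.

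LGALS9, at chr17:25958174-25976586 on the plus strand, was barely detected. Its counts were 4 and 9 in BRCA1+ cells under DMSO and 3 and 4 under entinostat, and 21 and 1 in BRCA1-null cells under DMSO and 17 and 8 under entinostat. The BRCA1-null control replicates lay on both sides of every other library, no difference was called, and the interval of the line difference in entinostat ran from -0.80 to 4.04. At 1 to 21 counts per library, a galectin-9 difference was not detectable. LGALS9 also shares 13.2% of its 50-base words with other genes, chiefly LGALS9C.

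The NKG2D ligands ULBP1 and ULBP2 were higher in BRCA1-null than in BRCA1+ cells under both treatments and were not called with entinostat. The genes stand in 1 cluster on chromosome 6, ULBP2 at chr6:150263136-150270368 and ULBP1 at chr6:150285143-150294846 on the plus strand, and ULBP3 at chr6:150385743-150390202 on the minus strand. ULBP1 gave 4.05 and 8.39 CPM in BRCA1+ cells under DMSO and 7.25 and 8.86 CPM under entinostat, and 10.1 and 13.0 CPM in BRCA1-null cells under DMSO and 12.2 and 16.2 CPM under entinostat. Every BRCA1-null library exceeded every BRCA1+ library, although the BRCA1+ controls differed 2.07-fold from each other. ULBP1 was 1.84-fold higher in BRCA1-null cells in DMSO (0.88 ± 0.281, adjusted p = 0.032) and 1.73-fold higher in entinostat (0.79 ± 0.272, adjusted p = 0.0447). The DMSO call ended without BRCA1+ control replicate 1 (adjusted p = 0.157, log2 fold change 0.47) or BRCA1-null control replicate 2 (0.171, 0.68), and the difference was 1.52 without BRCA1+ control replicate 2. In entinostat it ended without BRCA1+ entinostat replicate 1 (0.188) or 2 (0.107) or BRCA1-null entinostat replicate 2 (0.211), and with the legacy quasi-likelihood estimate (0.0537).

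ULBP2 had the smallest adjusted p of the 10 genes between the lines in DMSO, though not in entinostat. CPM was 2.53 and 1.98 in BRCA1+ cells under DMSO and 2.81 and 2.84 under entinostat, and 5.82 and 4.03 in BRCA1-null cells under DMSO and 5.76 and 4.21 under entinostat. The 4 BRCA1-null libraries lay above the 4 BRCA1+ libraries. ULBP2 was 2.17-fold higher in BRCA1-null cells in DMSO (1.12 ± 0.252, adjusted p = 0.00639) and 1.77-fold higher in entinostat (0.83 ± 0.248, adjusted p = 0.0258). Without BRCA1+ control replicate 2 the DMSO difference was 0.95 (adjusted p = 0.0585), and the call in entinostat ended without BRCA1+ entinostat replicate 1 (0.0932) or 2 (0.126) or BRCA1-null entinostat replicate 1 (0.169). ULBP2 shares 32.6% of its 50-base words with other genes, mostly RAET1L, which had 0 to 6 counts per library, and ULBP1 shares 8.13%, mostly with RAET1K, which had 21 to 55. How the authors' counting treated such reads is not given in the sources used here, so the split between these paralogs is uncertain.

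ULBP3, with 21 to 93 counts, had 0.825 and 1.29 CPM in BRCA1+ cells under DMSO and 0.662 and 1.14 CPM under entinostat, and 1.08 and 1.71 CPM in BRCA1-null cells under DMSO and 1.34 and 1.96 CPM under entinostat. In each group replicate 2 was 1.46 to 1.73 times replicate 1, and the line difference was 0.41 under DMSO (adjusted p = 0.401) and 0.79 under entinostat (adjusted p = 0.131). With the replicate number as a block, the difference under entinostat was called (adjusted p = 0.0126). With entinostat, the log2 changes of ULBP1 (0.37 in BRCA1+ and 0.28 in BRCA1-null cells), ULBP2 (0.34 and 0.04) and ULBP3 (-0.18 and 0.21) all had intervals that included 0, and their upper bounds lay between 0.52 and 1.06.

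Counted over the 10 genes, 4 were called between the lines in DMSO, 3 higher in BRCA1-null cells (CD274, ULBP1 and ULBP2) and 1 lower (CD276). Of all genes tested, 42.2% were called in that comparison, 21.1% higher and 21.0% lower, so that 4 of 10 is near the background, and the groups of 8 members did not overlap, against 70.9% of all genes. In entinostat 6 were called, with PDCD1LG2 added to those higher and VTCN1 to those lower, against 39.4% of all genes (20.5% higher and 18.9% lower), and 9 did not overlap, against 69.5% of all genes. Median log2 differences over the 10 were 0.455 and 0.657, beside 0.0117 and 0.019 over all genes. The set was mixed: CD276, VTCN1 and CD47 were negative under both treatments and PVR in DMSO. A shift of the 10 genes as a set was not tested. Entinostat called the same 2 members, CD274 and CD276, in each line, against 14.1% of genes in BRCA1+ cells (8.13% higher) and 10.8% in BRCA1-null cells (7.57% higher and 3.19% lower), with member medians of 0.269 and 0.259, and 5 and 2 members did not overlap between treatments, against 57.0% and 54.7% of genes. For the interaction edgeR called 0 members and 0 of 17714 genes, with 827 genes but 0 members at an unadjusted p under 0.05. The DESeq2 Wald test called 11 genes there and edgeR's likelihood ratio test 18, none of them members. The line and treatment comparisons share libraries with each other and are not independent.

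**Figure D3:**
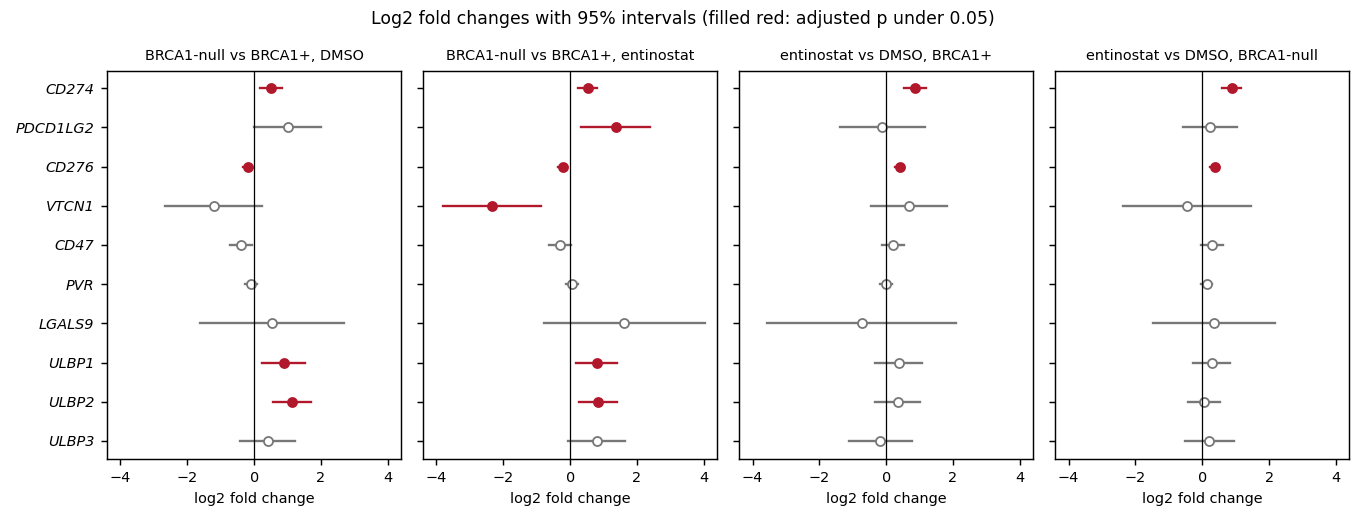
Log2 fold change (x axis) of each of the 10 genes (y axis) in 4 comparisons, with 95% intervals as lines, and filled red where the adjusted p is under 0.05. The CD274 and CD276 intervals lie above 0 with entinostat in both lines, ULBP1 and ULBP2 lie above 0 between the lines only, and VTCN1 and LGALS9 have the widest intervals.

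Beyond the members, the other NKG2D ligands followed the ULBP genes only in part. MICA and MICB are placed on alternative contigs of the table, where every gene has 0 counts, and could not be measured. Of 6 further ligands listed, 3 were tested. RAET1E, a neighbour of ULBP2, had 0.800, 0.632, 0.631 and 0.884 CPM in BRCA1+ and 1.56, 2.28, 2.09 and 1.24 CPM in BRCA1-null libraries, and was called higher under DMSO (1.45 ± 0.354, adjusted p = 0.0096) and under entinostat (1.11 ± 0.375, adjusted p = 0.0411). RAET1G (4 to 22 counts) and RAET1K were not called in any comparison. RAET1E, ULBP2 and ULBP1 were the genes called higher in BRCA1-null cells within 1 Mb of ULBP2 in DMSO, a window chosen after the values were seen. Of the 19 other genes tested there, 1 (RAET1E) was called higher and 2 (PCMT1 and LRP11) lower. Of all genes, 21.1% were called higher and 21.0% lower in that comparison. The 19 genes had a median of 0.121. Among 18 regulators linked to NKG2D ligand induction by DNA damage and stress, 1 was higher and 5 were lower in DMSO, and 4 and 5 in entinostat. Of the list 33.3% and 50% were thus called, against 42.2% and 39.4% of all genes. MYC was higher (0.64 and 0.82) and E2F2 was lower (-1.31 and -1.58). With entinostat 1 was higher and 2 were lower in BRCA1+ cells and 0 and 2 in BRCA1-null cells. Those are 16.7% and 11.1% of the list, near the 14.1% and 10.8% of all genes. The acetyltransferase genes CREBBP (-0.38 and -0.40) and EP300 (-0.40 and -0.33) were lower in each line.

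Around CD274 the line difference ran against that of most neighbours. Within 2 Mb of its start, 21 other genes were tested, of which 13 were called lower and 1 higher in BRCA1-null cells in DMSO. Of all genes tested, 21.0% were called lower and 21.1% higher in that comparison. Of the 21 genes, 18 had a negative log2 difference, with a median of -0.552. Those called lower were GLIS3, SLC1A1, PPAPDC2, CDC37L1, AK3, RCL1, KIAA1432, ERMP1, KIAA2026, RANBP6, UHRF2, GLDC and KDM4C. KIAA1432, the nearest called gene downstream of PDCD1LG2, had 38.6 CPM in BRCA1+ and 19.2 CPM in BRCA1-null cells (-1.01 ± 0.0906, adjusted p = 3.71e-05), and ERMP1 had 104 and 53.8 CPM (-0.94 ± 0.0585, adjusted p = 5.46e-06). PLGRKT, which ends just before CD274, gave -0.32 (adjusted p = 0.0608), and JAK2 gave -0.33 (adjusted p = 0.3). The gene called higher was RLN2, at 0.0702 against 0.630 CPM, a near copy of RLN1 whose reads may be split. In entinostat 12 neighbours were lower and 1 was higher, with a median of -0.471, against 18.9% of all genes lower and 20.5% higher. With entinostat, SPATA6L and GLDC were called higher in BRCA1+ cells and GLDC alone in BRCA1-null cells, where CD274 rose as well. Of all genes 14.1% and 10.8% were called in those comparisons, so that such counts among 21 genes cannot be set apart from the background. DNA copy number was not measured.

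**Figure D4:**
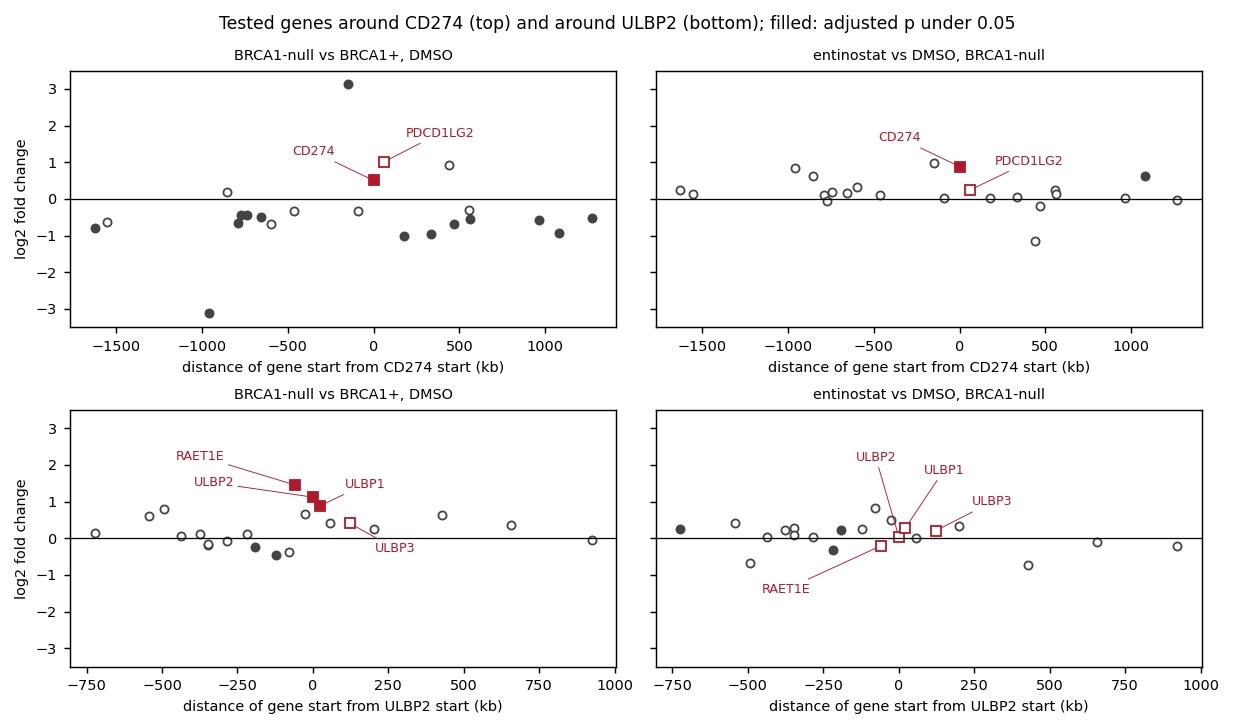
Log2 fold change (y axis) of each tested gene against the distance in kb of its start from that of CD274 (top) or ULBP2 (bottom), between the lines in DMSO (left) and with entinostat in BRCA1-null cells (right), filled where called and in red for members and RAET1E. CD274 lies above 0 while 18 of its 21 neighbours lie below 0 between the lines, and RAET1E, ULBP2 and ULBP1 lie together above 0.

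Among regulators of PD-L1 transcription, most NF-kB and MAPK genes were called higher in BRCA1-null cells. Interferon signalling genes were called both ways between the lines, at a share below that of all genes. Of 15 NF-kB and MAPK regulators, 11 were higher and 1, HIF1A, was lower in DMSO, and 10 and 1 in entinostat. Thus 80% and 73.3% were called, against 42.2% and 39.4% of all genes. The list was chosen with earlier results of these data known, so that this excess is a description and not a test. In DMSO TNFAIP3, a feedback inhibitor of NF-kB, was higher by 2.11 ± 0.117 (adjusted p = 2.96e-06), the AP-1 subunit FOSL1 by 1.89 ± 0.145, and the NF-kB subunits RELB by 1.03 ± 0.150 and NFKB2 by 0.87 ± 0.124. With entinostat NFKBIA, which encodes the inhibitor of NF-kB, was called higher in BRCA1+ (0.37) and BRCA1-null cells (0.30), and TNFAIP3 in BRCA1-null cells (0.49). Of 18 JAK-STAT and IRF regulators, 4 were higher and 2 lower in each line comparison. Those calls make 33.3% of the list, against 42.2% of all genes in DMSO and 39.4% in entinostat. IRF9 (1.47 and 1.36) and IRF7 (1.09 and 1.48) were higher and JAK1 (-0.67 and -0.68) was lower. IRF1 gave 0.15 (adjusted p = 0.368) in DMSO. With entinostat, in each line, the interferon receptor chain IFNGR2 was higher (0.32 and 0.34) and the phosphatase PTPN2 was lower (-0.27 and -0.34). These were the only 2 of the 18 that were called, or 11.1% in each line, against 14.1% and 10.8% of all genes.

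Genes that act on the ligand proteins or bind them were also followed. Of all genes tested, 42.2% were called between the lines in DMSO and 39.4% in entinostat. With entinostat 14.1% of all genes were called in BRCA1+ and 10.8% in BRCA1-null cells. The list for PD-L1 stability and trafficking lay near that background between the lines, with 38.9% called in each comparison. Of 18 genes for PD-L1 stability and trafficking, 2 were higher and 5 lower in DMSO and 3 and 4 in entinostat: the ubiquitin ligase adaptor SPOP was higher (0.68 and 0.85), and STT3B (-0.49 and -0.48) and B3GNT3 (-0.48 and -0.42) were lower. With entinostat, HIP1R was called higher in both lines (0.29 and 0.30). Of 9 CD47 partners tested, 4 were higher and 1 lower in DMSO (55.6% called), and 5 and 2 in entinostat (77.8%). The integrin subunit ITGB3 was the 1 lower in DMSO and was lower in entinostat too (-1.43 and -1.40). The endocytic receptor LRP1 (2.66 and 1.85) and the integrin subunit ITGAV (0.51 and 0.33) were higher. Entinostat raised 4 partners in BRCA1+ and 5 in BRCA1-null cells with 0 lower. They included ITGB3 (0.71 and 0.73), ITGAV (0.44 and 0.27) and LRP1 (1.51 and 0.71). Of 10 genes that govern shedding of the ligands, 4 were higher and 4 lower in DMSO and 4 and 3 in entinostat. Their median log2 difference was -0.0146 in DMSO and -0.0148 in entinostat. The metalloproteinase MMP2 was higher (6.94 ± 0.201) and its inhibitor TIMP3 was lower (-1.88 ± 0.243) in DMSO. RHBDF2, a cofactor of ADAM17, was called higher in every comparison (0.63, 0.56, 0.33 and 0.25). ADAM17 itself ran the other way between the lines, with 114 CPM in BRCA1+ and 89.7 CPM in BRCA1-null controls. With entinostat it averaged 129 and 100 CPM.

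Of 22 tested relatives among B7 and other checkpoint ligands, 5 were higher and 6 lower in DMSO, and 3 and 5 in entinostat. Of them 50% and 36.4% were thus called, against 42.2% and 39.4% of all genes. With entinostat the shares over all genes were 14.1% in BRCA1+ and 10.8% in BRCA1-null cells. The same all-gene shares stand beside the lists that follow. TNFSF18 was higher (3.33 and 2.75), BTNL9 (-3.39 and -3.24) and TNFSF9 (-2.56 and -2.89) were lower. With entinostat 3 rose and 2 fell in BRCA1+ cells and 2 rose in BRCA1-null cells: LGALS1 (0.77 and 0.29) and BTN3A2 (0.68 and 0.58) rose in both. Of 7 nectins and relatives of PVR, 3 were higher and 1 lower in DMSO, 1 and 1 in entinostat, CADM1 being higher (0.61 and 0.34) and PVRL3 lower (-0.40 and -0.42), and CADM1 alone rose with entinostat in BRCA1+ cells (0.35), with 0 called in BRCA1-null cells. Of 9 other ligands of natural killer cells and adhesion genes, 2 were higher and 1 lower in DMSO and 4 and 0 in entinostat, 2 rose and 1 fell with entinostat in each line, and the adhesion molecule ICAM1 was higher in all 4 comparisons (1.12, 0.97, 0.69 and 0.54). Of 8 tested receptor genes for the members, 2 were higher and 0 lower in each line comparison, and with entinostat 0 were called in BRCA1+ cells and 1 was higher and 1 lower in BRCA1-null cells. No gene of any of the 11 lists was called for the interaction.

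**Figure D5:**
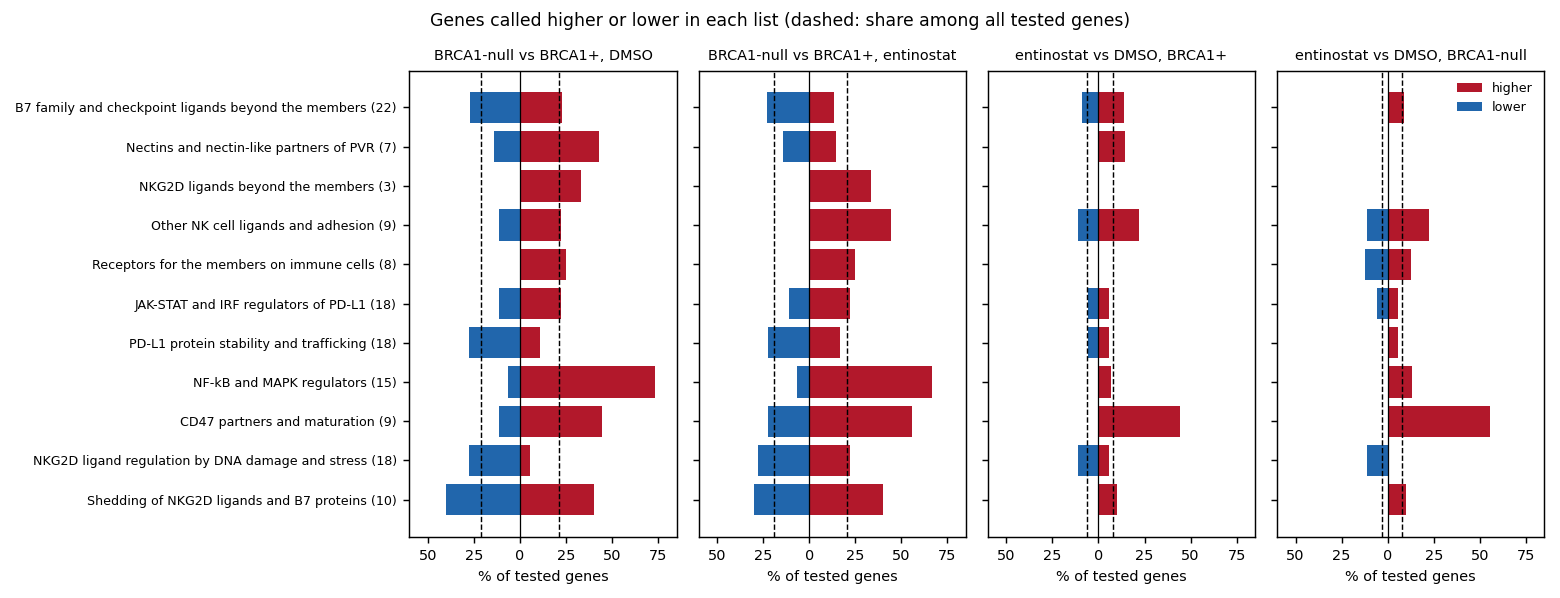
Percent of the tested genes of each list (number tested in brackets) called higher, to the right, or lower, to the left, in 4 comparisons, with dashed lines at the shares among all genes tested. The NF-kB and MAPK list reaches 11 of 15 higher between the lines in DMSO, and CD47 partners reach 4 and 5 of 9 higher with entinostat.

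Summed leukocyte and fibroblast markers differed between the groups, although each library came from a culture of the carcinoma line or its derivative. The sum of 12 leukocyte markers, 7 of them tested, was 17.7 to 19.2 CPM in BRCA1+ control, 24.8 to 26.8 in BRCA1+ entinostat, 29.7 to 31.6 in BRCA1-null control and 32.3 to 40.9 in BRCA1-null entinostat libraries. CD68, a macrophage marker, was the highest of them (8.58 to 30.9 CPM), and the T and B cell markers CD3D, CD2 and MS4A1 had 0 counts in all 8 libraries. The sum of 6 fibroblast markers, 3 of them tested, was 13.5 to 18.2, 26.6 to 35.2, 39.3 to 55.9 and 58.2 to 83.7 CPM in the same order. It came from the collagen genes COL1A1 (4.07 to 22.2 CPM) and COL1A2 (8.87 to 37.0 CPM) and from THY1 (0.450 to 24.4 CPM), while DCN and LUM had 0 counts in all libraries, and 4 endothelial markers gave 5.45 to 12.6 CPM over all libraries. CD274, ULBP1 and ULBP2 were higher in BRCA1-null cells alongside these sums, whose part in those differences was not tested. In bulk RNA, fewer cells that express a gene and less of its RNA per cell cannot be told apart.

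By pattern over the 8 libraries, the genes most like CD274 among 10527 of at least moderate expression were GLS2 (Pearson's r = 0.995), SUN3 (0.988) and IMPA1 (0.988). CD47 was most like LOC100133286 (0.974), BCL6 (0.974) and CNNM4 (0.967), and PVR most like UTP3 (0.963), MBD2 (0.954) and URI1 (0.928), among 10526 genes. These values describe log2 CPM over 8 libraries in 4 groups of 2, which share their group means and scaling. Values of r above 0.9 were reached by 224 genes for CD274, 104 for CD47 and 8 for PVR.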

How the data were processed

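Poly(A) RNA sequencing of UWB1.289 (BRCA1-null) and its BRCA1+ derivative was analysed in 8 libraries, 4 groups of 2 named by the sample titles. The unnormalised counts, 1 per gene and library, were deposited by the authors in 1 table after aligning reads to hg19 with TopHat 2 and counting with NGSUtils. How strand and multiply mapped reads were treated is not given in the sources used here. All columns were mapped to samples (0 left over), and 1 unnamed entry had 0 counts. Gene positions and lengths come from the table, counted from 1. CPM and RPKM are computed here.

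The 10 members were taken by symbol. Members and gene lists were chosen with earlier results of these data known, the lists from general knowledge. edgeR 4.0.16 in R 4.3.3 (filterByExpr over the 4 groups, 17714 genes, TMM, glmQLFit with legacy set to FALSE, glmQLFTest, two-sided) fitted all 8 libraries with 4 residual degrees of freedom, and Benjamini-Hochberg adjustment ran over all genes. Intervals are 95% on 9.15 total degrees of freedom. Total counts of 31900158 to 53549893 set the precision, and the floor of 3 counts covers counting error only.

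By rule, all members and BRCA1 were named, from each list up to 4 called genes with the largest absolute log2 fold change, an average of 1 or more on the log2 CPM scale and no overlap between groups, the 3 genes most like CD274, CD47 and PVR that averaged 3 or more on that scale (correlated on log2 CPM with a prior count of 2), and called genes within 2 Mb of CD274. RAET1E, RAET1G, RAET1K, RAET1L, HIF1A, IRF1, JAK2, PLGRKT, PCMT1, LRP11, ADAM17 and the count of shared 50-base words (over GENCODE v44 transcripts on GRCh37) were chosen after values were seen. Promoter windows are RefSeq's, GRCh38.p14; 9 of 10 members had one, CD276 with 2. A comparison of member proteins was planned and not run, for lack of sequences. Alternatives were scaling by DESeq2 size factors or by upper-quartile factors, omitting the filter or requiring 50 counts in 2 libraries, the DESeq2 1.42.0 Wald test, edgeR's likelihood ratio and legacy tests, the replicate number as a block, fits of only the groups compared, a log2 change of 1 or more in size required as well, and each library left out. The fit was tested on simulated data. Some genes that the naming rule would take are not reported here.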

Additional observations from a re-analysis of the deposited data

How the results depend on the processing

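The calls between the lines rested on 2 libraries per group and moved with single libraries, more than with settings. The numbers of members called were 4, 6, 2, 2 and 0 (line in DMSO, line in entinostat, entinostat in BRCA1+ cells, entinostat in BRCA1-null cells, interaction), and a required log2 change of 1 or more in size left 1, 2, 0, 0 and 0. With each library left out in turn the ranges were 1 to 5, 0 to 6, 1 to 2, 1 to 2 and 0 to 0. The lowest values came without BRCA1+ control replicate 2 or BRCA1-null control replicate 2 for the line in DMSO and without BRCA1+ entinostat replicate 2 for the line in entinostat, fits in which the calls over all genes also fell, to 5312, 5431 and 4527. Leaving out BRCA1-null entinostat replicate 2 left 1 member called in entinostat, leaving out BRCA1+ entinostat replicate 1 left 2, and leaving out BRCA1+ control replicate 1 left 2 in DMSO. Of the values with a library left out, 334 kept direction and side of the threshold, 30 lost and 4 gained a call and 32 changed sign, and under the other settings 406, 8, 9 and 4 did so. The fit of only the groups compared lowered all-gene calls with entinostat in BRCA1-null cells from 1906 to 712, and CD274 and CD276 were called in both fits. The cause was not tested.

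The sign changes under other settings concerned uncalled values: PVR with entinostat in BRCA1+ cells (0.035 with upper-quartile factors, 0.013 with the stricter filter) and the CD274 interaction (-0.023 and -0.018). With a library left out, lowest and highest log2 values that crossed 0 were, in DMSO between the lines, -0.17 to 0.0080 for PVR and -2.84 to 1.59 for LGALS9, and in entinostat -0.032 to 0.13 for PVR. With entinostat in BRCA1+ cells they were -0.39 to 0.29 for PDCD1LG2, -0.060 to 1.14 for VTCN1, -0.046 to 0.020 for PVR, -0.040 to 1.01 for ULBP1 and -0.69 to 0.19 for ULBP3. In BRCA1-null cells they were -0.31 to 0.67 for PDCD1LG2, -1.67 to 0.58 for VTCN1, -0.71 to 3.72 for LGALS9, -0.21 to 0.29 for ULBP2 and -0.087 to 0.60 for ULBP3. For the interaction they were -0.071 to 0.089 for CD274, -0.19 to 0.79 for PDCD1LG2, -0.083 to 0.0068 for CD276, -0.15 to 0.28 for CD47 and -0.73 to 0.31 for ULBP1.

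With the replicate number as a block, 6, 8, 2, 2 and 0 members were called and 8956, 8398, 4314, 3640 and 1 of all genes. PDCD1LG2 (adjusted p = 0.0312) and CD47 were added in DMSO, and CD47 and ULBP3 (0.0126) in entinostat. Deviations of same-numbered libraries from their group means correlated at 0.0523 to 0.287 over the 6 pairs of groups, above 0.1 in 4 of them, and no source says that a number marks a shared culture, so pairing was neither shown nor assumed. Low counts limit LGALS9, VTCN1 and PDCD1LG2 most.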
